A study of Mus musculus with 6 samples.

Results

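The 4 Notch receptors, their 5 canonical ligands (*Dll1*, *Dll3*, *Dll4*, *Jag1* and *Jag2*) and the glycosyltransferase *Lfng* were examined in pharyngeal tissue of mouse embryos with and without functional *Pax9*. The members were chosen by gene symbol, and all 10 were found among the 14647 genes of the table. Each value is a log2 RPKM, the base 2 logarithm of the reads scaled to gene length and library size, so that levels of different genes can be compared. RNA was taken at E9.5 from 3 embryos homozygous for a null allele of *Pax9* (*Pax9*-/-), in which the gene is disrupted in every tissue. It was also taken from 3 stage-matched wild-type embryos, all on a C57Bl/6J background. The tissue was dissected from the junction of the first and second arch to the base of the heart. The sex of each embryo is not known here. Given this region, each library holds endoderm, ectoderm, mesoderm, neural crest, vessels, blood and neighbouring neural and heart tissue. In such bulk samples fewer cells of a type and less RNA per cell cannot be told apart.

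In the Notch pathway a ligand of the Delta or Jagged family on one cell binds a receptor on its neighbour, and the receptor is then cut by an ADAM protease and by the gamma-secretase complex. The freed intracellular domain enters the nucleus, where it joins the DNA-binding protein Rbpj and a Mastermind coactivator at target genes such as *Hes1* and the *Hey* genes. Fringe enzymes, of which Lfng is one, extend the O-fucose sugars on the receptors and thereby shift their response from Jagged towards Delta ligands. The pathway is known for arterial identity, smooth muscle around the arch arteries, the timing of somites and the choice between progenitor and neuron.

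*Pax9* itself, the gene disrupted, had a log2 RPKM of −0.43, −0.63 and −0.59 in *Pax9*-null replicates 1 to 3 and 0.63, 0.71 and 0.96 in wild-type replicates 1 to 3. It was lower in every mutant than in every wild-type embryo, with a log2 fold change of −1.32 ± 0.19 (SE, limma adjusted *P*=0.0155), which is 40.1% of the wild-type level, so that reads of the gene remained in the mutants. Wild-type replicate 3 stood apart from the other 5 libraries. Its 8 cardiomyocyte markers summed to 77.3 RPKM against 1075 to 1421 RPKM elsewhere, and its 12 neural tube and neuron markers to 214 RPKM against 108 to 145 RPKM. *Pax9*-null replicates 1 and 3 carried more erythroid RNA, with 8 markers at 4889 and 4449 RPKM against 2391 to 2636 RPKM in the other 4 libraries. The part of these differences in the results was not tested. Fold changes or adjusted *P* values without single libraries are given beside the members, and the range of each fold change at the end. Markers of pharyngeal endoderm (9 of 9 in the table) and neural crest (8 of 8) were present in every library.

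All 4 receptors were called lower in *Pax9*-null embryos, at the threshold of an adjusted *P* of at most 0.1. No ligand passed it, nor did *Lfng*. The smallest fold change of a receptor (*Notch4*, −0.55) was close to the largest of a ligand (*Jag2*, −0.47). Whether receptors and ligands differed in their change was not tested. The test covered 13547 genes whose mean reached 0.5 RPKM, all 10 members among them, and called 26.7% of these genes, 12.0% as lower and 14.7% as higher. The fitted fold change was below 0 for 10 of the 10 members, against 50.2% of all tested genes, and the median over the members was −0.46 (log2) against −0.00 over all genes. The 3 *Pax9*-null values all lay below the 3 wild-type values for 7 members, the 4 receptors with *Dll4*, *Jag1* and *Jag2*, where this held for 20.1% of all tested genes. The reverse order held for 21.8%, so that the genotypes were separated in one direction or the other for 41.9% of them. Once trends with gene length and GC content were taken out of each library, none of the 4 receptors was called by limma (0 members had an unadjusted *P* under 0.05). The log2 fold changes of *Notch1*, *Notch2* and *Notch3* were then −0.15, −0.23 and −0.19, and those of *Notch4* and *Jag2* changed sign. Exact permutation of the 6 embryos gives a smallest *P* of 0.1 per gene.

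**Figure D1:**
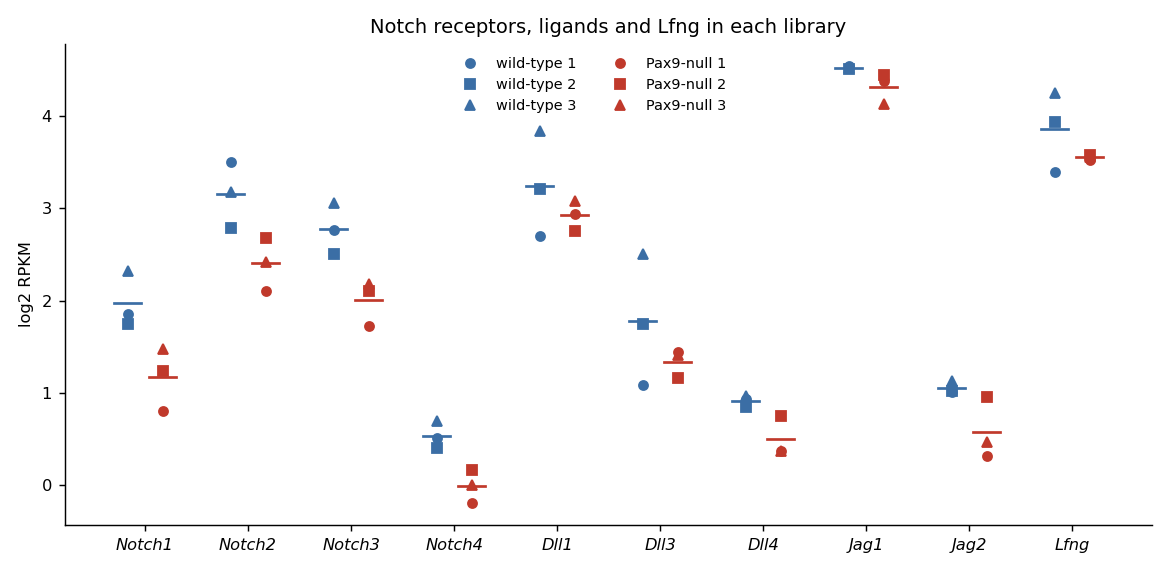
Level of each member in each library, as log2 RPKM. Symbols are single embryos (blue, wild-type; red, *Pax9*-null; circle, square and triangle, replicates 1, 2 and 3) and lines are the means of 3. The 4 receptors, *Dll4*, *Jag1* and *Jag2* show no overlap of the genotypes, whereas *Dll1*, *Dll3* and *Lfng* overlap, with wild-type replicate 1 lowest and wild-type replicate 3 highest for each of these 3 genes.

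In wild-type embryos *Jag1* was the most abundant member, with a mean level of 4.52 log2 RPKM. It was followed by *Lfng* (3.86), *Dll1* (3.25), *Notch2* (3.16), *Notch3* (2.78), *Notch1* (1.98), *Dll3* (1.78), *Jag2* (1.05), *Dll4* (0.92) and *Notch4* (0.53 log2 RPKM). Several neighbours in this order were not separated by the spread between embryos. The ranges of *Lfng* and *Dll1*, *Dll1* and *Notch2*, *Notch2* and *Notch3*, *Notch1* and *Dll3*, and *Dll3* and *Jag2* overlapped, although *Lfng* exceeded *Dll1* within each of the 3 wild-type libraries. The order of means in *Pax9*-null embryos was the same except that *Dll3* (1.34 log2 RPKM) stood above *Notch1* (1.17), in 1 of 3 libraries. In wild-type embryos, where *Notch1* had the higher mean, it exceeded *Dll3* in 1 of 3 libraries. The neighbours whose ranges overlapped in *Pax9*-null embryos were *Notch2* and *Notch3*, *Dll3* and *Notch1*, *Notch1* and *Jag2*, and *Jag2* and *Dll4*.

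The receptors are single-pass membrane proteins that are cleaved on ligand binding. *Notch3* (ENSMUSG00000038146, chromosome 17 of GRCm38 from 32120820 to 32166852, minus strand), which is best known from vascular smooth muscle and pericytes, had a log2 RPKM of 1.72, 2.10 and 2.18 in *Pax9*-null replicates 1 to 3 and 2.76, 2.51 and 3.06 in wild-type replicates 1 to 3. The highest mutant value lay below the lowest wild-type value. The log2 fold change was −0.77 ± 0.18 (SE, limma adjusted *P*=0.0450), or 58.4% of the wild-type level, from 307 to 844 reads per library. Of the receptors, *Notch3* kept its call most often when single libraries were omitted. It stayed past the threshold in 4 of 6 such fits, among them that without wild-type replicate 3 (0.0853), and missed it without *Pax9*-null replicate 1 (0.169) or 3 (0.128).

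*Notch1* (ENSMUSG00000026923, chromosome 2 of GRCm38 from 26457903 to 26516663, minus strand), the receptor of endothelium, somites and neural progenitors, had a log2 RPKM of 0.80, 1.24 and 1.47 in *Pax9*-null replicates 1 to 3 and 1.86, 1.75 and 2.33 in wild-type replicates 1 to 3. Wild-type replicate 3 was the highest library and *Pax9*-null replicate 1 the lowest, and the genotypes did not overlap. This gave a log2 fold change of −0.81 ± 0.23 (SE, limma adjusted *P*=0.0587), or 57.1% of the wild-type level, from 286 to 897 reads per library. Its size rested in part on the extreme libraries. The fold change was −0.62 (adjusted *P*=0.197 by limma) without *Pax9*-null replicate 1 and −0.63 (0.121) without wild-type replicate 3. Without the third mutant it was larger in size (−0.96), yet the adjusted *P* rose to 0.128. That fit called 175 genes in all, against 3611 with all 6 libraries.

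*Notch2* (ENSMUSG00000027878, chromosome 3 of GRCm38 from 98013527 to 98150361, plus strand), which acts in smooth muscle and neural crest, was the most abundant receptor in every library. Its log2 RPKM was 2.11, 2.68 and 2.42 in *Pax9*-null replicates 1 to 3 and 3.51, 2.79 and 3.18 in wild-type replicates 1 to 3. Here wild-type replicate 1 was the highest library, and the gap between the lowest wild-type and the highest *Pax9*-null value was the narrowest of the 4 receptors. Its log2 fold change amounted to −0.76 ± 0.21 (SE, limma adjusted *P*=0.0584), or 59.2% of the wild-type level, from 537 to 1554 reads per library. The call held when the second mutant (0.0629) or the second wild-type embryo was omitted (0.0390). It was lost when any of the other 4 was, at adjusted *P* values between 0.101 (wild-type replicate 3) and 0.202 (*Pax9*-null replicate 1).

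*Notch4* (ENSMUSG00000015468, chromosome 17 of GRCm38 from 34564268 to 34588503, plus strand), a receptor largely of endothelium, was the least abundant member. It had a log2 RPKM of −0.20, 0.16 and −0.00 in *Pax9*-null replicates 1 to 3 and 0.51, 0.40 and 0.69 in wild-type replicates 1 to 3, from 81 to 163 reads per library. The values were separated by genotype, with a log2 fold change of −0.55 ± 0.19 (SE, limma adjusted *P*=0.0911), or 68.5% of the wild-type level. This call was the least stable of the 4, as omitting any single library ended it, at adjusted *P* values between 0.104 and 0.263. It was also lost when libraries were centred on their medians (0.104).

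The endothelial markers were measured beside *Notch4*, *Notch1* and *Dll4*. Of 14 endothelial markers, all of them tested, 3 were called lower (*Cdh5*, *Tie1* and *Eng*, with log2 fold changes of −0.67, −0.74 and −0.72) and 1 higher (*Sox17*, 0.54), 12 had a fitted fold change below 0, and the median was −0.40, beside 12.0% called lower and 50.2% below 0 over all genes. With the trends of length and GC content removed, none of these 3 stayed called (adjusted *P*=0.172, 0.360 and 0.270 by limma), while *Sox17* did (0.83, 0.0689). The summed level of the 14 markers was 87.9 to 105 RPKM in *Pax9*-null and 97.5 to 156 RPKM in wild-type libraries. Of the smooth muscle and pericyte markers, *Pdgfrb* was called lower (−0.83, adjusted *P*=0.0414 by limma), though not with those trends removed (−0.51, 0.132). The remaining 5 tested markers of that list were not called. Of the 6 tested, 2 had a fitted fold change below 0, and the median was 0.33. Over all genes 12.0% were called lower and 50.2% were below 0. The sum over the 7 markers present was 235 to 290 RPKM in *Pax9*-null and 75.3 to 323 RPKM in wild-type libraries, the lowest value being that of wild-type replicate 3. Their part in the receptor values was not tested.

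The summed level of the 4 receptors was 12.7 RPKM ± 2.16 in mutant and 21.5 RPKM ± 3.68 in wild-type embryos (mean ± SD, *n*=3 each, two-sided exact permutation test, *P*=0.1, the smallest possible). Errors of the sums and shares that follow are likewise SDs of 3 embryos. Of the sum, *Notch2* held 42.2% ± 3.05 in mutant and 42.3% ± 5.95 in wild-type embryos, *Notch3* 31.9% ± 1.54 in mutant and 32.3% ± 2.78 in wild-type embryos, and *Notch1* 18.0% ± 2.02 in mutant and 18.6% ± 2.70 in wild-type embryos. The differences of these 3 shares were smaller than the spread between embryos (two-sided exact permutation tests, *P*=1 for *Notch2* and *P*=0.900 for *Notch3* and for *Notch1*). *Notch4* held 7.91% ± 0.619 in mutant and 6.83% ± 0.760 in wild-type embryos (*P*=0.200 by the same exact test). The ligands together summed to 33.1 RPKM ± 1.66 in mutant and 40.7 RPKM ± 5.76 in wild-type embryos (exact permutation *P*=0.1). Of the ligand sum *Jag1* made up 60.3% ± 3.88 in mutant and 57.3% ± 8.21 in wild-type embryos (*P*=0.700 by the same exact test). This difference of 2.99 percentage points, mutant minus wild-type, became −1.31 without wild-type replicate 3, and those of the *Notch1* and *Notch3* shares also changed sign there (0.46 and 0.85 in place of −0.65 and −0.37).

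**Figure D2:**
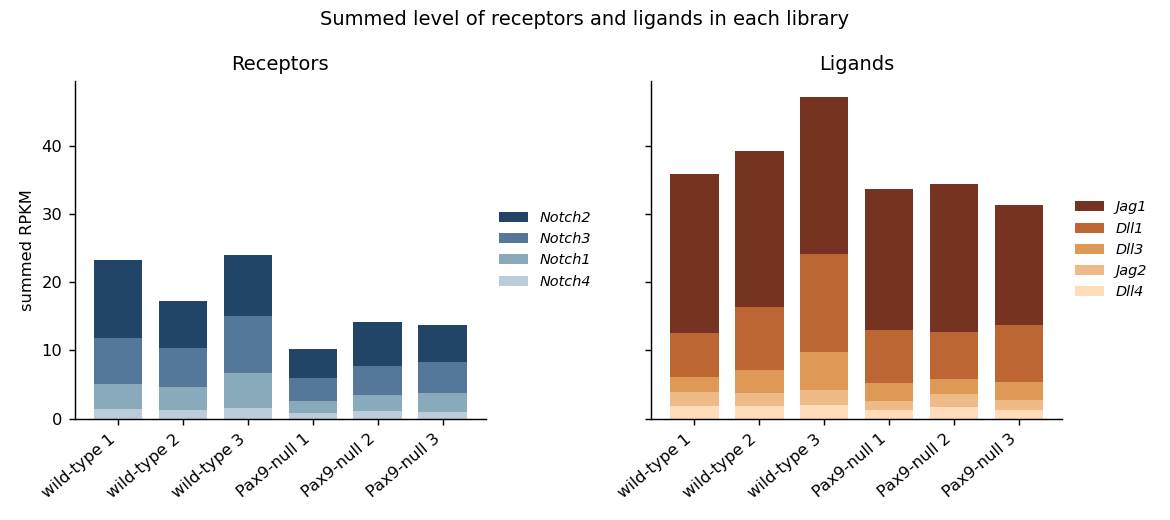
Summed RPKM of the 4 receptors (left) and the 5 ligands (right) in each library, with the part of each gene stacked. The receptor sum was between 10.2 and 14.2 RPKM in the *Pax9*-null and between 17.3 and 24.0 RPKM in the wild-type libraries, and the ligand sum between 31.3 and 34.4 RPKM and between 35.9 and 47.1 RPKM.

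As the receptors were the members called lower, the 250 bases before their start in RefSeq (GRCm38.p6) are shown. The *Notch1* window lies inside the span given for the gene above, which reaches 26516663. Annotated exons of GENCODE M21 cover 2 bases of the *Notch1* window, 11 of *Notch2*, 0 of *Notch3* and 27 of *Notch4*. Capitals mark GGGCGG on either strand, the core of the GC box that Sp1-type factors bind, which was looked for after the windows had been seen. It occurs in 32.7% of all 32851 windows of this length, and the marked copies do not overlap.
*Notch1* (chr2:26503823-26504072, minus strand): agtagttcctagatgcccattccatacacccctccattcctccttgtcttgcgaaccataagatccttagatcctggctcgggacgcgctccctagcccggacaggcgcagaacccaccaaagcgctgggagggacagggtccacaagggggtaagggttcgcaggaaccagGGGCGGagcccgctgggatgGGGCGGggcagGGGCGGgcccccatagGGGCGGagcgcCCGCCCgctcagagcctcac
*Notch2* (chr3:98013288-98013537, plus strand): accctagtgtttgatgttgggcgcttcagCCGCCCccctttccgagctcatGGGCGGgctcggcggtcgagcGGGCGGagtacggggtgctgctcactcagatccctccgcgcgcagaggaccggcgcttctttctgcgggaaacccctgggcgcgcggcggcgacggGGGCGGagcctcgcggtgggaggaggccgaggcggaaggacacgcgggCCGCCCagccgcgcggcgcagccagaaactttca
*Notch3* (chr17:32166891-32167140, minus strand): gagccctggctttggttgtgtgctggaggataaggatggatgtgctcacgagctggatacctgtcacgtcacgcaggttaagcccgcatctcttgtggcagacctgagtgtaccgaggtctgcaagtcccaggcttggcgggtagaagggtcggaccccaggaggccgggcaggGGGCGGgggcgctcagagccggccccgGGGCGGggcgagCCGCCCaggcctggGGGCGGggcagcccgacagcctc
*Notch4* (chr17:34564045-34564294, plus strand): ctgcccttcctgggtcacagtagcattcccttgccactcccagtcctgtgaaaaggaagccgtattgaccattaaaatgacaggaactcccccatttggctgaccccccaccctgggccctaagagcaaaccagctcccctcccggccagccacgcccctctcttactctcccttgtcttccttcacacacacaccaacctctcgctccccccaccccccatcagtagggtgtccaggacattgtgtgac
The windows of *Notch1* and *Notch2* hold 5 copies each and that of *Notch3* holds 4, whereas that of *Notch4* holds 0. The sequence is not particular to the receptors, since the window of *Jag2* holds 5 copies, that of *Dll4* 2, and those of *Dll3* and *Lfng* 1 each, with 0 for *Dll1* and *Jag1*. The windows of *Jag2* and *Dll3* lie wholly within annotated exons (250 bases each). The GC contents of the receptor windows are 66.0%, 72.0%, 68.8% and 58.4%, against a median of 52.4% over all windows. The core of the Rbpj site, TGGGAA on either strand, was found in 0 of the 4. A match or its absence describes these letters only.

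Among the Delta ligands, *Dll4* (ENSMUSG00000027314, chromosome 2 of GRCm38 from 119325784 to 119335962, plus strand) is the ligand of arterial and sprouting endothelium. Its log2 RPKM was 0.37, 0.75 and 0.37 in *Pax9*-null replicates 1 to 3 and 0.94, 0.85 and 0.96 in wild-type replicates 1 to 3, from 57 to 94 reads per library. All 3 mutant values were below the wild-type values, which lay close together, while *Pax9*-null replicate 2 was above the other mutants. The log2 fold change of −0.42 ± 0.18 (SE, limma adjusted *P*=0.137) missed the threshold, with a 95% interval from −0.83 to −0.0078. It was called in 2 of the 16 alternatives, with the variance not modelled on the mean (0.0935) and with weights for the libraries (0.0963). The fold change was −0.40 (adjusted *P*=0.252 by limma) without wild-type replicate 3, −0.35 (0.337) without the first mutant and −0.36 (0.291) without the third.

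*Dll1* (ENSMUSG00000014773, chromosome 17 of GRCm38 from 15367354 to 15376872, minus strand) and *Dll3* (ENSMUSG00000003436, chromosome 7 of GRCm38 from 28293553 to 28302238, minus strand) act in neurogenesis and in the presomitic mesoderm, where Dll3 works inside the cell as an inhibitor rather than as an activating ligand. *Dll1* had a log2 RPKM of 2.94, 2.76 and 3.08 in *Pax9*-null replicates 1 to 3 and 2.70, 3.20 and 3.84 in wild-type replicates 1 to 3. *Dll3* had a log2 RPKM of 1.44, 1.16 and 1.40 in *Pax9*-null replicates 1 to 3 and 1.08, 1.75 and 2.51 in wild-type replicates 1 to 3. For both genes wild-type replicate 1 was below every *Pax9*-null library and wild-type replicate 3 above all others, so that the genotypes overlapped and the wild-type embryos spread more widely than the mutants (SD 0.573 against 0.162 for *Dll1* and 0.712 against 0.150 for *Dll3*, log2). The log2 fold change was −0.32 ± 0.26 (SE, limma adjusted *P*=0.408) for *Dll1*, with a 95% interval from −0.93 to 0.29. It was −0.44 ± 0.33 (SE, limma adjusted *P*=0.360) for *Dll3*, with a 95% interval from −1.20 to 0.31, from 73 to 203 reads per library. Both estimates turned on the 2 extreme wild-type embryos. Without wild-type replicate 3 the log2 fold change was −0.025 for *Dll1* (adjusted *P*=0.941 by limma) and −0.080 for *Dll3* (0.842). Without wild-type replicate 1 it was −0.60 (0.107) and −0.79 (0.0926), the latter past the threshold.

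The neural markers varied with the same libraries. Their sum was lowest in wild-type replicate 1 (108 RPKM) and highest in wild-type replicate 3 (214 RPKM), with 145 RPKM in wild-type replicate 2 and 117 to 135 RPKM in the *Pax9*-null libraries. Of the 12 neural tube and neuron markers, 2 were called lower and 0 higher, 7 had a fitted fold change below 0, and the median was −0.02. The shares over all genes were 12.0% called lower and 50.2% below 0. Those called lower included *Elavl3* (−1.27), which marks neurons and had the largest fall of the 12. *Elavl3* was not called with those trends removed (−0.89, adjusted *P*=0.132 by limma). The part of neural tissue in the values of *Dll1* and *Dll3* was not tested. Of 8 markers of presomitic mesoderm and somites, 3 were analysed (*Tcf15*, *Meox1* and *Pax3*), and their sums overlapped (37.4 to 50.6 RPKM in *Pax9*-null and 39.5 to 48.6 RPKM in wild-type libraries). The other markers of that list, among them *Tbx6* and *Mesp2*, had no values in the table and so could not be analysed.

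*Jag1* (ENSMUSG00000027276, chromosome 2 of GRCm38 from 137081456 to 137116644, minus strand), the ligand through which endothelium signals to smooth muscle around the arch arteries, had a log2 RPKM of 4.38, 4.45 and 4.13 in *Pax9*-null replicates 1 to 3 and 4.55, 4.51 and 4.52 in wild-type replicates 1 to 3. The wild-type values lay close together, and every mutant value was below them, *Pax9*-null replicate 3 furthest. At −0.21 ± 0.10 (SE, limma adjusted *P*=0.178), the log2 fold change missed the threshold, with a 95% interval from −0.44 to 0.024, and 1194 to 1727 reads per library stood behind it. It was called in 0 of the 16 alternatives, where the adjusted *P* ran from 0.132 to 0.432, and its unadjusted limma *P* was 0.0721. Omission of *Pax9*-null replicate 3 brought the fold change to −0.11 (0.400), whereas it was −0.24 (0.282) when the first mutant was omitted and −0.21 (0.282) when the third wild-type embryo was.

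*Jag2* (ENSMUSG00000002799, chromosome 12 of GRCm38 from 112907819 to 112929776, minus strand) is a ligand of epithelia, and its log2 RPKM was 0.32, 0.96 and 0.46 in *Pax9*-null replicates 1 to 3 and 1.01, 1.02 and 1.13 in wild-type replicates 1 to 3. The genotypes did not overlap, though *Pax9*-null replicate 2 came close to the wild-type embryos. The threshold was missed at a log2 fold change of −0.47 ± 0.20 (SE, limma adjusted *P*=0.142), with a 95% interval from −0.95 to −0.0012. On omission of *Pax9*-null replicate 2 the fold change was −0.66 and past the threshold (0.0724). It was −0.34 (adjusted *P*=0.371 by limma) on omission of *Pax9*-null replicate 1. The reads behind *Jag2* numbered 58 to 111 per library at a gene length of about 4055 bases. At the length in GENCODE M21 (6965 bases) its values did not come out whole. Of the lengths tried, 3 made them whole, and the nearest to that of GENCODE was used, so the length is not fixed by the values. Of the summed Jagged ligands, *Jag1* held 93.0% ± 1.28 in mutant and 91.7% ± 0.395 in wild-type embryos (two-sided exact permutation test, *P*=0.200).

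*Lfng* (ENSMUSG00000029570, chromosome 5 of GRCm38 from 140607320 to 140615545, plus strand) encodes a fringe enzyme of the Golgi. Its log2 RPKM was 3.53, 3.58 and 3.56 in *Pax9*-null replicates 1 to 3 and 3.40, 3.94 and 4.25 in wild-type replicates 1 to 3, from 334 to 598 reads per library. The *Pax9*-null embryos were nearly alike (SD 0.0277, log2), whereas the wild-type embryos spread on both sides of them (SD 0.431) in the order seen for *Dll1* and *Dll3*. Between the genotypes the log2 fold change was −0.30 ± 0.20 (SE, limma adjusted *P*=0.299), with a 95% interval from −0.76 to 0.15. It was −0.54 and past the threshold on omission of wild-type replicate 1 (0.0504), and −0.11 on omission of the third wild-type embryo (0.673). The other fringe genes were also measured. *Rfng* was called lower, with a log2 fold change of −0.57 ± 0.16 (SE, limma adjusted *P*=0.0594), and *Mfng* was not (−0.17, adjusted *P*=0.536 by limma).

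*Lfng* was the member whose upstream window held the Rbpj core. The 250 bases before its RefSeq start are given with the matches in capitals, TTCCCA being TGGGAA read on the other strand.
*Lfng* (chr5:140607091-140607340, plus strand): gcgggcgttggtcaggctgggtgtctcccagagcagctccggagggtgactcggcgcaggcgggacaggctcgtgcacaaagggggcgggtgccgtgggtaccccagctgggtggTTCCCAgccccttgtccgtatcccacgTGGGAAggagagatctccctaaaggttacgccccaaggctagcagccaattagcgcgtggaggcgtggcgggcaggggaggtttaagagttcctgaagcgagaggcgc
The 2 matches begin 135 and 108 bases before the start. The core was found in 0 windows of the other 9 members (10 windows, as *Dll1* has 2 starts), and in 21.6% of all windows.

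Omitting single libraries bore on all of these calls. Without wild-type replicate 3, the library apart in its heart and neural markers, 1 of the 10 members (*Notch3*) was called by limma, with 3 at an unadjusted *P* under 0.05 and 2141 genes called in all. Without *Pax9*-null replicate 1 or 3, the libraries with more erythroid RNA, 0 members were called, with 3 and 4 at an unadjusted *P* under 0.05, and the calls over all genes dropped to 301 and 175. All 10 fitted fold changes stayed below 0 in each of the 6 fits.

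**Figure D3:**
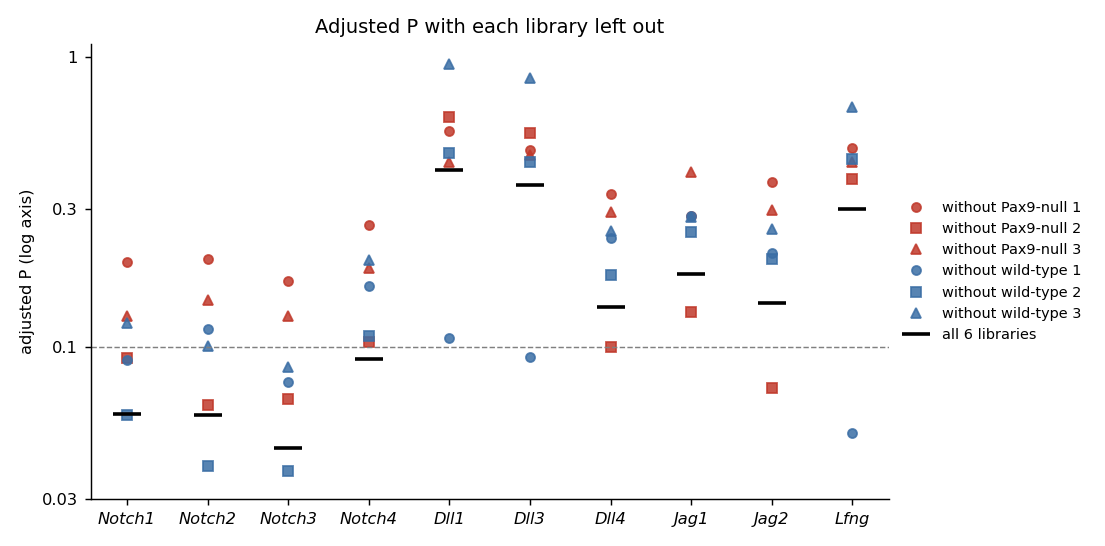
Adjusted *P* (log axis) of each member by limma with all 6 libraries (black bar) and with each library left out (red, *Pax9*-null; blue, wild-type; circle, square and triangle, replicates 1, 2 and 3). The dashed line is the threshold of 0.1. Without *Pax9*-null replicate 1 or 3 all 10 members lie above it, and *Notch4* lies above it whichever library is left out.

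Fold changes over the whole table went with gene length and GC content. Over 13524 annotated genes, the rank correlation of the log2 fold change (Spearman's rho, across genes, which are not replicates) was −0.40 with length and −0.44 with GC content. The receptors are long, and GC content is high in receptors and other members alike. *Notch1* (14232 bases of exons) lay at percentile 97.1 of length, *Notch2* (10782) at 92.7, *Notch3* (8089) at 83.5 and *Notch4* (8061) at 83.4. Their GC contents were at percentiles 84.4, 75.3, 95.9 and 98.4, in the same order. *Jag2* (98.0), *Dll3* (96.7), *Lfng* (94.1), *Dll4* (82.7) and *Dll1* (81.5) all lay above *Notch2* in GC content. The 5 ligands were between percentiles 31.0 and 77.6 of length, the highest being *Jag2* at its length in GENCODE M21, at which its values did not come out as whole reads, and *Lfng* (2505 bases) at 25.6. *Jag1* was the only member with a GC content below the median (percentile 45.0).

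With both trends taken out of each library, 0 of the 10 members were called by limma, and 0 had an unadjusted *P* under 0.05, where 1.72% of all genes were still called lower and 3.05% in either direction. The fitted fold change was below 0 for 8 of the 10, against 52.0% of all genes. The median over the members was then −0.15, against −0.01 over all genes. The log2 fold changes of the receptors became −0.15 for *Notch1*, −0.23 for *Notch2*, −0.19 for *Notch3* and 0.069 for *Notch4*, with adjusted *P* values of 0.742, 0.325, 0.480 and 0.837. *Jag2* also changed sign (0.10), a value that rests on the GENCODE length in doubt for this gene. *Dll1*, *Dll3*, *Dll4*, *Jag1* and *Lfng* stayed below 0, at −0.066, −0.22, −0.19, −0.12 and −0.15. *Pax9* itself kept its fall under the same step (−1.29, adjusted *P*=0.0344 by limma).

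**Figure D4:**
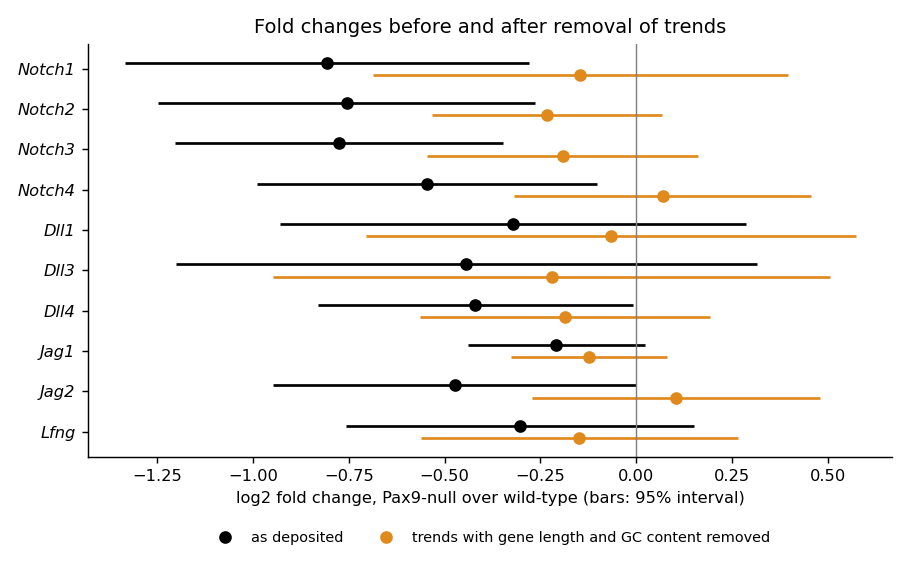
Log2 fold change of each member, *Pax9*-null over wild-type, with 95% intervals from limma, on the values as deposited (black) and after the trends with gene length and GC content were taken out of each library (orange). The intervals of the 4 receptors, *Dll4* and *Jag2* lie below 0 as deposited, and all 10 intervals include 0 after the step.

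Of 58 other genes of the pathway, listed by role, 52 were tested. In *Pax9*-null embryos 9 were called lower and 1 higher, 39 had a fitted fold change below 0, and the median was −0.14. Over all genes 12.0% were called lower, 14.7% higher and 50.2% were below 0, and the counts by role that follow, some of 1 or 2 genes, are to be read against these shares. With the trends of length and GC content removed, 0 of them were called lower by limma (5 had an unadjusted *P* under 0.05) and 1 higher, and the median was −0.03.

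Of the genes for receptor cleavage, 3 of 9 tested were called lower. Among these were *Furin*, the convertase that matures the receptor in the Golgi (−0.75, adjusted *P*=0.0629 by limma), and *Ncstn* (−0.53, 0.0468), which encodes the substrate receptor of gamma-secretase. *Adam10* and *Adam17*, the proteases of the preceding cut, had log2 fold changes of 0.094 and −0.041 and were not called. *Epn1*, an epsin for ligand endocytosis, was called lower (−0.36, 0.0495), 1 of 6 genes of its group. In the nuclear complex 2 of 8 were called lower, *Maml1* (−0.54, 0.0517), a Mastermind coactivator, and the acetyltransferase *Kat2a* (−0.47, 0.0571). *Rbpj*, the DNA-binding partner, was not called (−0.25, 0.177). Of 9 genes of the repressor complex 2 were called lower, among them *Spen* (−0.69, 0.0952), and of 9 tested genes of receptor turnover and inhibition 0 were called (1 with an unadjusted *P* under 0.05, *Dtx3* at −0.28). With one library left out, *Ncstn* stayed called in 4 of 6 fits, *Furin*, *Epn1* and *Kat2a* in 3, *Rfng* and *Maml1* in 2, and *Spen* in 1.

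Among the 5 tested target genes, 1 was called higher and 0 lower. This was *Hes1*, a direct target that represses differentiation. Its log2 RPKM was 5.12, 5.30 and 5.02 in *Pax9*-null replicates 1 to 3 and 4.47, 4.88 and 4.64 in wild-type replicates 1 to 3. All mutant values lay above all wild-type values, and the log2 fold change was 0.48 ± 0.12 (SE, limma adjusted *P*=0.0501). It stayed past the threshold when any 1 of 4 libraries was omitted, and also with the trends of length and GC content removed (0.51, adjusted *P*=0.0981 by limma), but not without *Pax9*-null replicate 1 (0.173) or 3 (0.128). The other tested targets were not called, with log2 fold changes of 0.55 for *Hey2* (0.148), 0.13 for *Hey1* (0.539), 0.074 for *Hes5* (0.900) and −0.40 for *Heyl* (0.213). Whether the change of *Hes1* differed from that of the receptors was not tested.

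**Figure D5:**
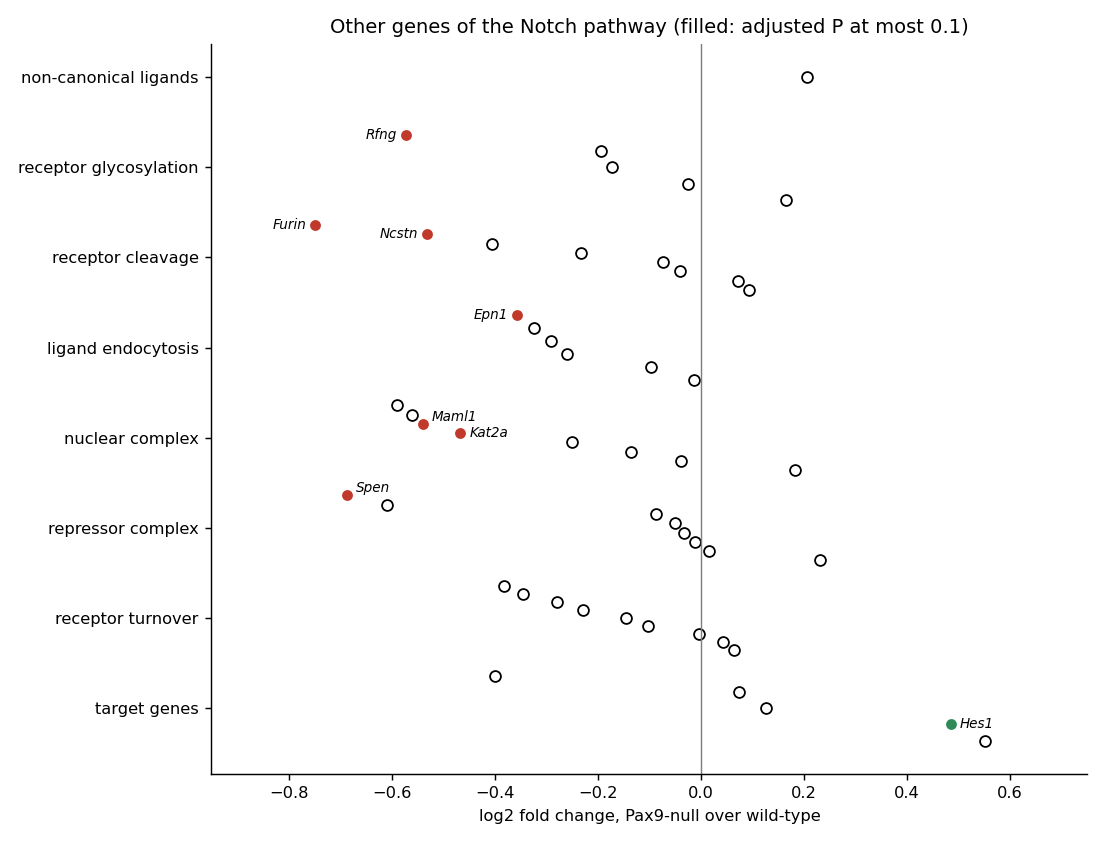
Log2 fold change, *Pax9*-null over wild-type, of tested genes of the pathway other than the members, by role. Each point is a gene (2 of the 9 called lower are not drawn), and filled points had an adjusted *P* of at most 0.1 by limma (red, lower; green, higher). The 7 red points lie between −0.75 and −0.36 and the 1 green point, *Hes1*, at 0.48.

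The genes most like each member over the 6 libraries were found by the root mean square difference of log2 values, after each gene's own mean was taken off. Nearest to *Dll3* was *Dll1* (0.113), and nearest to *Dll1* was the growth factor receptor *Fgfr3* (0.0635), which was the second for *Dll3* (0.160), followed by *Phyhipl* (0.0682). For *Lfng* they were the zinc finger gene *Zic2* (0.0305) and the homeobox gene *Gbx1* (0.0597), both known from the neural tube. *Notch3* was most like *Zswim4* (0.0681) and then *Notch1* (0.0845). *Notch1* was most like the nuclear receptor *Ppard* (0.0683), and *Notch2* like *Tshz1* (0.0460) and *Tenm4* (0.0557). The genes nearest to *Notch4* were *Smarcd1* (0.0480) and *Rnf5* (0.0533). *Dll4* was nearest to *Sall2* and *Sema4b* (0.0371 and 0.0416), *Jag1* to *Pomt2* and *Dstyk* (0.0218 and 0.0285), and *Jag2* to *Plekhg5* and *Sipa1l3* (0.0459 and 0.0521). With 6 libraries behind each value, these are descriptions only.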

How the data were processed

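RNA-seq of 3 *Pax9*-null and 3 wild-type pharyngeal regions was analysed from one table of the authors. The sample labels describe sorted cells and Smart-seq2 libraries, whereas the methods of the study describe whole dissected tissue and strand-specific TruSeq libraries, which are assumed here. The authors trimmed reads (Trimmomatic 0.32 in the submitters' processing notes), retained unique reads without duplicates, down-sampled the libraries towards the smallest one, aligned them to GRCm38 with STAR and counted Ensembl genes with featureCounts at default settings. The values deposited are log2 RPKM. The function that made them is not given in the sources used here. A prior count of 0.5 and effective library sizes, which are not read totals, were worked out from the values. The sizes were 11509912 to 11728258 in *Pax9*-null and 12352664 to 12692274 in wild-type libraries. Every *Pax9*-null size was thus below every wild-type size, and the part of this in the results was not tested. With these sizes, 82.7% of the values came out as whole reads (within 0.05) at the exon length of GENCODE M21. Read numbers beside genes come from this step (for *Notch3* at a length of 8044 bases), and precision is limited by these numbers and by 3 embryos per genotype. Default counting ignores strand, and exons of *Notch1*, *Notch2*, *Notch3*, *Dll1* and *Dll4* share 214 to 1068 bases with another annotated gene, so that reads there cannot be assigned.

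Genes whose mean reached 0.5 RPKM were tested with limma 3.58.1 under R 4.3.3 (variance moderated along a trend with mean level), two-sided and without covariates, with Benjamini-Hochberg adjustment over all 13547 genes. The alternatives were a pseudocount of 0.1 or 1 RPKM, no filter or a mean of at least 5 RPKM, centring on medians, quantile normalization, removal of length and GC trends (loess, span 0.3), a replicate term, no variance trend, library weights, each library left out, and a threshold of 0.05. The fit was tested on simulated data. Genes named are the members, called genes of the pathway list, *Pax9*, *Hes1*, *Hes5*, *Hey1*, *Hey2*, *Heyl*, *Rbpj*, *Mfng* and *Rfng* whether called or not, and the 2 genes most like each member. *Adam10*, *Adam17*, *Dtx3* and the called markers were named after their values were seen. Some genes that this rule would name are not reported here and are counted only. Members and lists were chosen with earlier results of these data known. Upstream windows were taken from RefSeq and cut at the start, and all 10 members matched by symbol.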

Additional observations from a re-analysis of the deposited data

How the results depend on the processing

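With the length and GC trends removed, 412 genes were called in place of 3611, with 0 members and 0 other pathway genes lower. The log2 fold change became −0.15 for *Notch1*, −0.23 for *Notch2* and −0.19 for *Notch3*, and reversed for *Notch4* (0.069) and *Jag2* (0.10). Differences in share, null minus wild-type in percentage points, became −1.12 for *Jag1* and 1.12 for *Jag2* among the Jagged ligands, and 0.76 for *Jag2* among all ligands. The share of calls that were higher was 55.1%, against 43.4% here, 60.7% with median centring and 45.1% with quantile normalization.

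Whether the replicate numbers pair the embryos is not known. The correlations of deviations between embryos of the same number were −0.02, −0.17 and 0.26. Embryos of unlike number were not compared, so these values cannot decide it. With a replicate block 1377 genes were called, with 2 members and 0 other pathway genes lower. *Notch2* (−0.76) and *Notch4* (−0.55) lost their calls. *Notch4* also lost it with median centring (−0.51). A mean of at least 5 RPKM left 5 members tested and 2 called, with 5 other pathway genes lower and 2 higher. Of all 7983 genes tested there, 1091 were called lower and 1660 higher. Library weights raised the calls over all 13547 genes to 4369, with 2031 lower and 2338 higher. They gave 7 members lower, adding *Dll4* (−0.45), *Jag2* (−0.54) and *Lfng* (−0.47), with 13 other pathway genes lower and 3 higher. Without a variance trend *Dll4* was called too (−0.42), among 2818 genes called in all. At an adjusted *P* of at most 0.05, 1335 genes were called, 1 member lower, 2 other pathway genes lower and 0 higher. The causes were not tested.

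With each library left out, 175 (without *Pax9*-null replicate 3) to 3578 genes were called, with 301 without *Pax9*-null replicate 1, 0 to 4 members lower, and 0 to 9 other pathway genes lower and 0 to 1 higher. The log2 fold changes ran from −0.96 to −0.62 for *Notch1*, −0.94 to −0.58 for *Notch2*, −0.91 to −0.63 for *Notch3*, −0.63 to −0.45 for *Notch4*, −0.60 to −0.025 for *Dll1*, −0.79 to −0.080 for *Dll3*, −0.55 to −0.35 for *Dll4*, −0.27 to −0.11 for *Jag1*, −0.66 to −0.34 for *Jag2* and −0.54 to −0.11 for *Lfng*. Depth limits *Dll3*, *Dll4*, *Jag2* and *Notch4* most, the members with the fewest reads.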
